A study of Mus musculus with 6 samples.

Results

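Forkhead (Fox) genes encode transcription factors that share a winged-helix DNA-binding domain, and they were examined here in the distal midgut of mouse embryos at E13.5. A probe was included when its only gene symbol in the platform annotation was Fox followed by a letter from a to s and a number. This gave 38 of the 13840 genes named on the array, with 39 of its 33012 probes, since *Foxk1* has a pair of probes. The study compared 6 samples, with 1 array each. Embryos of 3 samples were Id2-/-, lacking *Id2* throughout the body, and those of the other 3 were Id2+/+. The labels call embryos of both genotypes littermates, and which of them shared a litter is not stated. Mice were on an inbred or a mixed genetic background according to the study's methods, and the one used for the arrays is not stated. Whether 1 embryo or a pool went into a sample is not stated either, so the spread between samples may be partly technical. The targeted gene was not analysed here, and the genotypes rest on the labels.

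Forkhead factors work in nearly every layer of the gut. FoxA factors open chromatin in the endoderm, FoxF factors act in the splanchnic mesenchyme in response to hedgehog ligands from the epithelium, FoxL1 marks mesenchymal cells just under the epithelium, and FoxO factors are held in the cytoplasm by insulin and AKT signaling. Id2 is a helix-loop-helix protein without a DNA-binding region that ties up the E proteins, which bind the letters CANNTG, called the E-box.

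Among the Fox genes 3 stood out, with differences of 1.92-fold to 4.26-fold between genotype means. *Foxa2* was higher in the Id2-/- midgut, while *Foxq1* and *Foxa3* were lower by their means. All 3 passed the test only in a fit that kept the array number as a block. They did not pass when quantile normalization was added to the block or both arrays numbered 1 were left out. By fold change on these same arrays, the paper lists *Foxa2* as raised and *Foxq1* as reduced. It also reports *Foxa2* as raised by qRT-PCR. These 3 probes entered the test through the genotype in which they were higher, the other one having at least 1 array below background, so the filter itself favored probes that differ, and the counts and shares of Fox probes below are descriptions. All values below are log2 of the signal after the authors divided it by the median of the array, differences are Id2-/- minus Id2+/+, and a spot is said to be above background at a signal-to-noise value of at least 3. Signals of different probes are not set against each other, because probes bind with different strength. In bulk tissue, fewer cells of a type and less RNA per cell cannot be told apart.

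The arrays have a feature that touches many of the results. The arrays numbered 1 stood apart in both genotypes, correlating at 0.966 with each other across all probes and at 0.918 to 0.930 with the others, which correlated at 0.957 to 0.962. Of all probes, 42.1% to 50.1% were above background on the Id2-/- arrays and 43.9% to 48.0% on the Id2+/+ arrays. Over the 12741 tested probes the difference had a median of 0.35 in pair 1, -0.04 in pair 2 and -0.19 in pair 3, a pair being the arrays with the same number, and this offset was left in the pair values. The intestinal markers *Cdx2* and *Epcam* were above background on all 6 arrays.

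Promoter sequence was at hand for 24 of the 38 genes, from RefSeq. The stretches upstream of the outermost start of *Foxa2* and *Foxa3* are shown because the genotype means of these FoxA genes differed in opposite directions. Each is 250 bases long, on the minus strand of GRCm38.p6 and written 5′ to 3′, with E-boxes (CANNTG, which reads the same on both strands) in capitals. *Foxa2* is at chr2:148046970-148047219 and *Foxa3* at chr7:19023540-19023789.
Foxa2: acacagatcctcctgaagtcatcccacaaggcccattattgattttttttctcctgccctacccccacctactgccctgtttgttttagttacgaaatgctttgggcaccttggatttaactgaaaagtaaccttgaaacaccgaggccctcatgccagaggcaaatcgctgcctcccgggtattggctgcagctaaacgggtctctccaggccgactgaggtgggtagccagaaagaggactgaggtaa
Foxa3: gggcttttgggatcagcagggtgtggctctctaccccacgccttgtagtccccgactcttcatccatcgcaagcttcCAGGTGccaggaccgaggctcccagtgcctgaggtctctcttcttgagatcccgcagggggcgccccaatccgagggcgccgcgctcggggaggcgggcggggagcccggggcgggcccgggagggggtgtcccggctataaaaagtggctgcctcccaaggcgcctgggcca
The *Foxa3* stretch holds 1 E-box, and that of *Foxa2* holds 0, as does 1 of its 2 inner starts, while the other has 1. An E-box was found in 66.2% of 32851 such stretches over all genes and in 17 of the 29 stretches of Fox genes. The forkhead motif TGTTTNC, or GNAAACA on the other strand, was in neither sequence and in 17.8% of all stretches.

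Of the 39 Fox probes, 7 were above background on all 6 arrays, 18 on some and 14 on none. These 7 are 17.9% of the Fox probes, where the same held for 46.7% of the 14411 probes with a single gene symbol. The 14 are 35.9%, against 24.1%. The 7 probes belong to *Foxf2*, *Foxh1*, *Foxj1*, *Foxn3*, *Foxo1*, *Foxp1* and *Foxp2*. Testing required 3 of 3 arrays above background in Id2-/-, in Id2+/+ or in both, which added *Foxa2*, *Foxa3*, *Foxj3*, *Foxk1* and *Foxq1* and left 27 Fox probes untested.

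**Figure D1:**
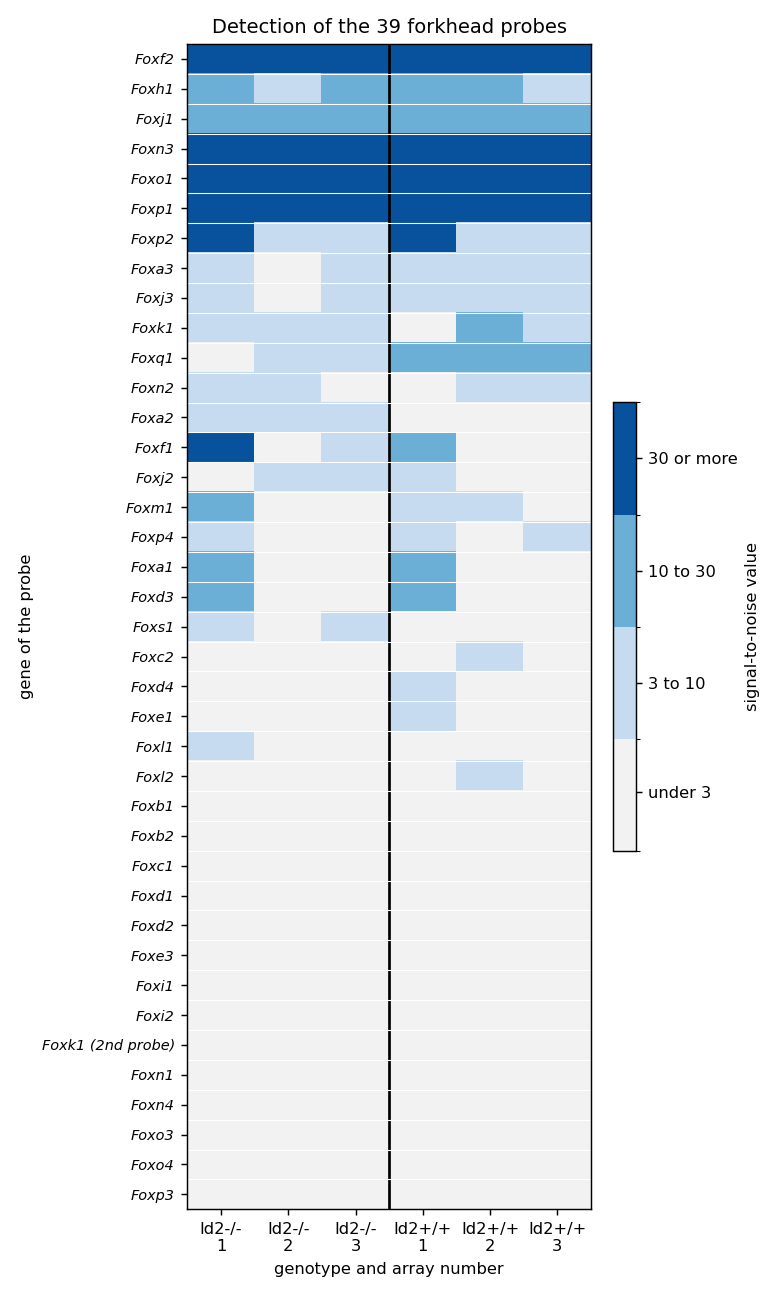
Signal-to-noise value of the 39 forkhead probes (rows, by the number of arrays above background) on the 3 Id2-/- and 3 Id2+/+ arrays (columns), in 4 classes of color. The darkest cells, at 30 or more, fill the rows of *Foxf2*, *Foxn3*, *Foxo1* and *Foxp1*, and 14 rows stay under 3 throughout.

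In limma with Benjamini-Hochberg adjustment over all tested probes, 0 of the 12 tested Fox probes passed 0.05 without the block, as did 0.0% of the 12741 probes. At an unadjusted p under 0.05, 1 Fox probe (*Foxa2*) and 234 probes in all (1.84%) were found. With the array number as a block, limma called 3 Fox probes, 1 higher and 2 lower, against 135 higher (1.06%) and 143 lower (1.12%) over all probes. All probes (2.18% of them called) then share a standard error of 0.27, because limma set infinite prior degrees of freedom. With the block and quantile normalization together, limma called 0 probes (0.0%), Fox probes included. With the block and without both arrays numbered 1 it called 0.314%, and 0 Fox probes. The median difference was 0.05 over the 12 Fox probes and 0.04 over all tested probes, and 9 of the 12 differed by less than 0.4 in either direction.

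Of the FoxA genes, which encode pioneer factors of the endoderm, *Foxa2* was higher and *Foxa3* lower by genotype means. Only for *Foxa2* did the genotypes not overlap. On the Id2-/- arrays numbered 1, 2 and 3 *Foxa2*, which is needed to form foregut endoderm, was at 1.18, 1.64 and 1.62, against -0.56, -0.17 and -1.10 on the Id2+/+ arrays. Every Id2-/- array lay above every Id2+/+ array, and the Id2-/- arrays alone, 3 of 3, were above background. By genotype means *Foxa2* was 4.26-fold higher. The Id2+/+ signals were taken at their measured level, because each was above the lowest signal that counted as detected on its array or equal to it. They were all below background, at signal-to-noise values of -0.41, 2.05 and 0.69. The 4.26-fold is thus an uncertain estimate and no limit in either direction. Leaving out 1 array at a time gave log2 differences of 1.85 to 2.31. Among all tested probes 2.73% were higher on every Id2-/- array, and *Foxa2* was at least 2-fold higher in each pair, as were 0.126% of all probes. Genotype means at least 2-fold apart were found for 1.55% of all probes, and among Fox probes for *Foxa2* and *Foxq1*. In limma the log2 difference was 2.09 (standard error 0.31, adjusted p = 0.598), and with the block the adjusted p was 2.59e-11. Without both arrays numbered 1 the difference was 2.26, with an adjusted p of 0.0673 from limma with the block.

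*Foxa3*, best known for its part in genes of the liver, ran the other way in 2 of the 3 pairs. Its log2 signal was 1.13, -0.36 and 0.39 on the Id2-/- arrays numbered 1, 2 and 3, against 0.91, 1.29 and 1.77 on the Id2+/+ arrays. The genotypes overlapped, because in pair 1 the Id2-/- value was the higher one, and the Id2-/- value of pair 2 was below background. The difference was -0.94 (standard error 0.43), with an adjusted p of 1.0 in limma, and with the block of 0.0339. Without both arrays numbered 1 it was -1.52, with an adjusted p of 0.0677 from limma with the block. By pair it was 0.22, -1.66 and -1.38. The median over 15 tested genes of 18 gut epithelium markers was 0.46, -0.49 and -0.83. Over all tested probes the median had the same signs, at 0.35, -0.04 and -0.19. So it did over the mesenchyme and smooth muscle markers, at 0.32, -0.11 and -0.24. In pairs 2 and 3 the medians of the gut epithelium markers were lower than both of these. The log2 of the summed signal of the gut epithelium markers was 9.68 to 9.95 on the Id2-/- arrays and 9.17 to 10.74 on the Id2+/+ arrays. Their part in the difference of *Foxa3* was not tested. With the block limma called 1 of the 15, *Fabp1*, a fatty acid-binding protein gene of enterocytes, at -1.61, and without the block 0.

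*Foxa1*, which overlaps with *Foxa2* in function in the endoderm, was above background only on the arrays numbered 1. It was at 2.11, 0.33 and 0.41 on the Id2-/- arrays, against 1.78, -0.82 and 0.30 on the Id2+/+ arrays. The value was higher in the Id2-/- sample of each pair, by 0.33, 1.15 and 0.11, but 4 of these 6 signals were below background and the probe was not tested. Of 18 genes known as FoxA targets or as products of liver and foregut, 5 were tested and limma called 0 in either direction with or without the block. Their median difference was -0.33, against 0.04 over all tested probes. By pair their median was 0.31, -0.40 and -0.76. *Afp*, encoding alpha-fetoprotein, differed by -0.55 and *Ttr*, encoding transthyretin, by -0.25, and both were higher in Id2-/- in pair 1. *Cftr*, of the same list, went the other way by its means, at 0.26.

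**Figure D2:**
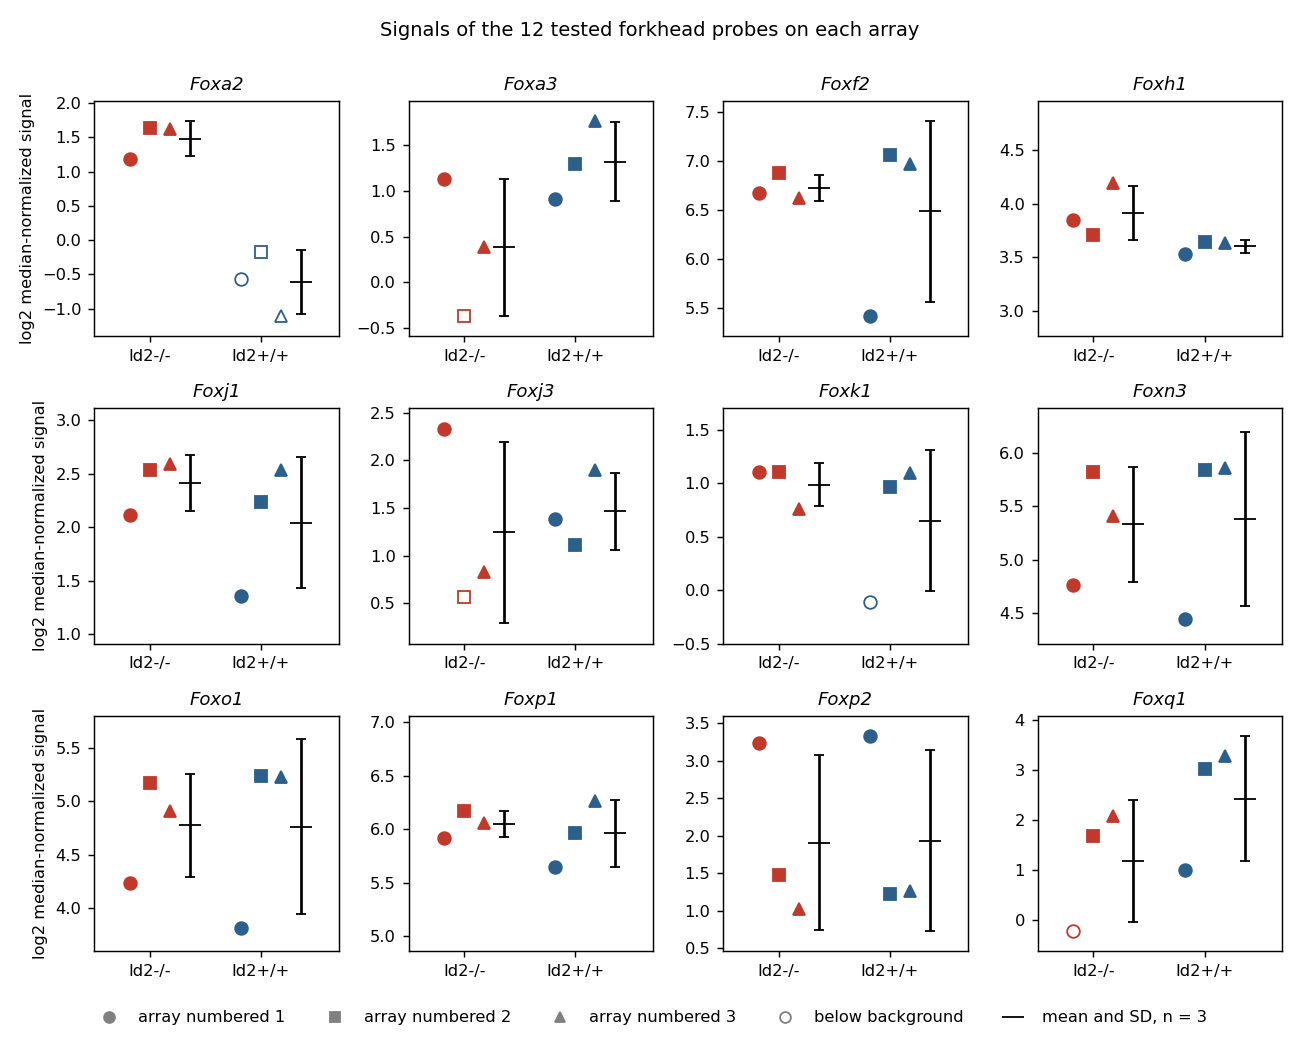
Log2 median-normalized signal (vertical axis, a scale of its own for each gene) of the 12 tested forkhead probes on the Id2-/- and Id2+/+ arrays, with a marker for each array number, open markers below background, and the mean and SD (n = 3) beside the points. *Foxa2* has 3 open Id2+/+ points, and the arrays numbered 1 (circles) lie apart from the others in both genotypes for *Foxp2* and *Foxq1*.

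*Foxq1*, a forkhead gene that mouse stomach surface cells need for their mucin *Muc5ac*, was lower in the Id2-/- sample of every pair. The log2 signal was -0.23, 1.67 and 2.07 on the Id2-/- arrays numbered 1, 2 and 3, and 1.0, 3.01 and 3.28 on the Id2+/+ arrays. Both arrays numbered 1 were the lowest of their genotype by about the same amount, at -2.10 and -2.15 from the mean of the other 2 arrays, so that the genotypes overlapped while each Id2-/- array was below its Id2+/+ partner. The pair differences were -1.22, -1.34 and -1.20. Lower in every pair were 5.64% of all tested probes, and at least 2-fold lower in each 0.196%. These shares rest on pairing the arrays by number, and the data do not tell pairs 2 and 3 from the swapped ones. If swapped, the Id2-/- array numbered 3 (2.07) would be less than 2-fold below the Id2+/+ array numbered 2 (3.01). The difference of means was -1.26 (standard error 0.78, adjusted p = 1.0 in limma), and the adjusted p was 5.62e-04 with the block. Leaving out the Id2+/+ array numbered 1 gave -1.97, and leaving out the Id2-/- array numbered 1 gave -0.56. Leaving out both gave -1.27, with an adjusted p of 0.0776 from limma with the block. *Foxq1* lies next to *Foxf2*, and *Foxf2* next to *Foxc1*, with 0 protein-coding genes between them in the RefSeq table. *Foxf2* differed by 0.24, and *Foxc1* was above background on 0 arrays.

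Only 3 of 14 markers of the stomach epithelium were tested, *Irx3*, *Irx5* and *Sox2*, and their differences of 1.73, 3.09 and 0.58 were opposite in sign to that of *Foxq1* and the same as that of *Foxa2*. The log2 of their summed signal was 4.02 to 4.41 on the Id2-/- arrays and 3.09 to 3.53 on the Id2+/+ arrays. Limma called 2 of the 3, *Irx3* and *Irx5*, with the block and 0 without it. With the block 1.06% of all tested probes were called higher. *Irx3* and *Irx5* entered the test through Id2-/- alone, with 1 and 0 Id2+/+ arrays above background, so the filter favored higher values there. The paper lists both as raised on these same arrays, so their values here are not an independent measure of stomach epithelium. It also reports both as higher in Id2-/- intestine by qRT-PCR, and as ectopic there by in situ hybridization in later embryos.

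**Figure D3:**
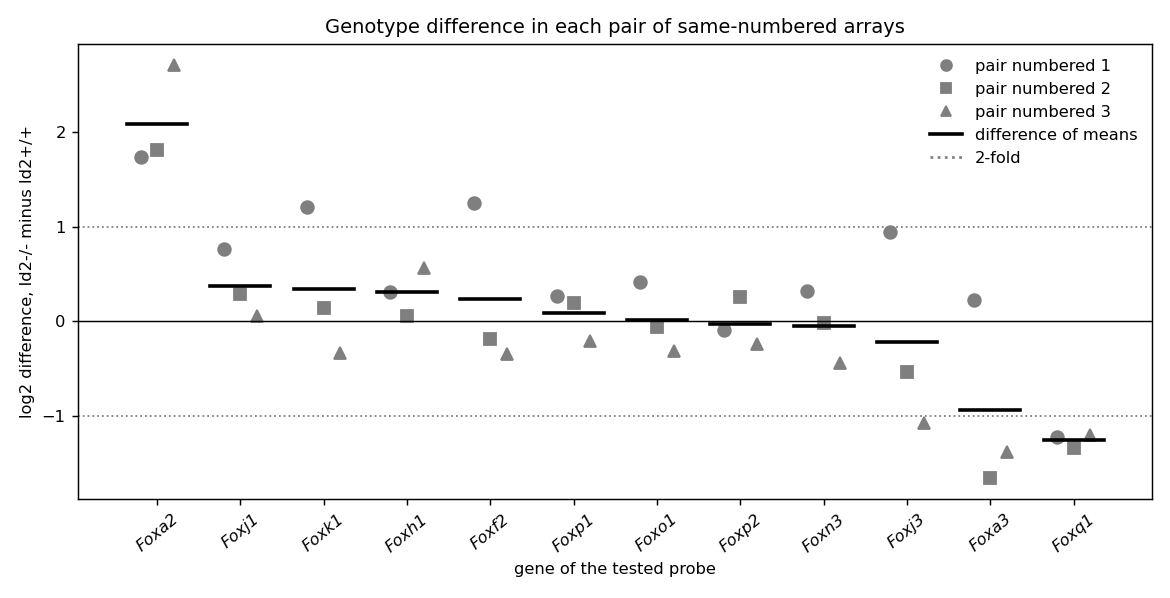
Log2 difference (vertical axis, Id2-/- minus Id2+/+) of the 12 tested forkhead probes in the pairs of arrays numbered 1, 2 and 3 (markers), with the difference of means as a bar and dotted lines at 2-fold. *Foxa2* lies above the upper line in all 3 pairs and *Foxq1* below the lower line, while *Foxa3* is at 0.22 in the pair numbered 1.

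The FoxF genes of the mesenchyme, *Foxf2* and *Foxf1*, differed by 0.24 and 0.41 between the genotypes, and only *Foxf1* was shifted on the arrays numbered 1 in both. *Foxf2*, a hedgehog-responsive gene of gut mesenchyme, was among the probes with the highest signal-to-noise values of the family, from 61.58 to 71.11. Its log2 signal was 6.68, 6.88 and 6.63 on the Id2-/- arrays, against 5.43, 7.07 and 6.98 on the Id2+/+ arrays. Of the arrays 5 lay within 6.63 to 7.07, and the Id2+/+ array numbered 1 alone was lower. The difference was 0.24 (standard error 0.45, adjusted p = 1.0 in limma), and it turned to -0.29 without that array.

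*Foxf1*, a gene of the splanchnic mesoderm and a hedgehog target, was at 6.82, 3.42 and 3.70 on the Id2-/- arrays, against 6.25, 3.43 and 3.04 on the Id2+/+ arrays. Both arrays numbered 1 were higher than the other 2 of their genotype, by 3.26 in Id2-/- and by 3.02 in Id2+/+, and their signal-to-noise values were 33.07 and 28.34. On the other 4 arrays the value was 2.38 to 7.29, and only the Id2-/- array numbered 3 passed 3 among them, so *Foxf1* was not tested. Between the genotypes the difference of means was 0.41, and by pair it was 0.57, -0.01 and 0.67. *Foxl1*, a gene of mesenchymal cells under the epithelium, was above background on the Id2-/- array numbered 1 alone. It was at 1.33, -0.33 and -1.54 on the Id2-/- arrays, against -0.84, -1.08 and -1.03 on the Id2+/+ arrays. *Foxc2*, a gene of vessels and lymphatics that neighbors *Foxl1*, was above background on the Id2+/+ array numbered 2 alone, with -0.97, 0.25 and -0.69 on the Id2-/- arrays against -1.05, 0.49 and -0.45 on the Id2+/+ arrays. *Foxc1*, its close relative, lay at -3.03, -2.99 and -2.53 on the Id2-/- arrays, against -2.57, -2.67 and -4.03 on the Id2+/+ arrays, all below background.

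Genes that act with the FoxF factors did not pass either. Of 17 genes of hedgehog signaling 4 were tested, and limma called 0 of them with or without the block, with a median difference of 0.13. *Gli1*, a target and effector of the pathway, was at 5.66, 5.25 and 5.30 on the Id2-/- arrays, against 4.80, 5.03 and 5.12 on the Id2+/+ arrays, with a difference of 0.42 (standard error 0.24, adjusted p = 1.0 in limma). Every Id2-/- value of *Gli1* was above every Id2+/+ value, as for 2.73% of all tested probes. *Bmp4*, a growth factor of the mesenchyme, differed by 0.09. The mesenchyme and smooth muscle markers, 13 of 17 tested, had a median difference of 0.04 and 0 calls, and the log2 of their summed signal was 12.23, 13.02 and 12.86 in Id2-/- and 11.89, 13.15 and 13.16 in Id2+/+. Both arrays numbered 1 were the lowest, and on these *Foxf1* was high. The part of the markers in this was not tested.

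FoxP proteins act in epithelium and smooth muscle of lung and gut, and 3 of their 4 genes had signals above background. *Foxp1* was at 5.92, 6.17 and 6.06 on the Id2-/- arrays, against 5.65, 5.97 and 6.27 on the Id2+/+ arrays, a difference of 0.09 (standard error 0.26). This is the second smallest standard error among the 12 Fox probes. *Foxp2*, the relative known from speech disorders in humans, was at 3.23, 1.48 and 1.02 on the Id2-/- arrays, against 3.33, 1.22 and 1.26 on the Id2+/+ arrays. The genotype difference was -0.03 (standard error 0.75), while both arrays numbered 1 were higher than the others, by 1.99 in Id2-/- and 2.09 in Id2+/+. *Foxp4* was at 1.31, 0.29 and -0.35 on the Id2-/- arrays, against 1.53, -1.37 and -0.18 on the Id2+/+ arrays. With 1 Id2-/- and 2 Id2+/+ signals above background it was left untested. *Foxp3*, the factor of regulatory T cells, was above background on 0 arrays.

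**Figure D4:**
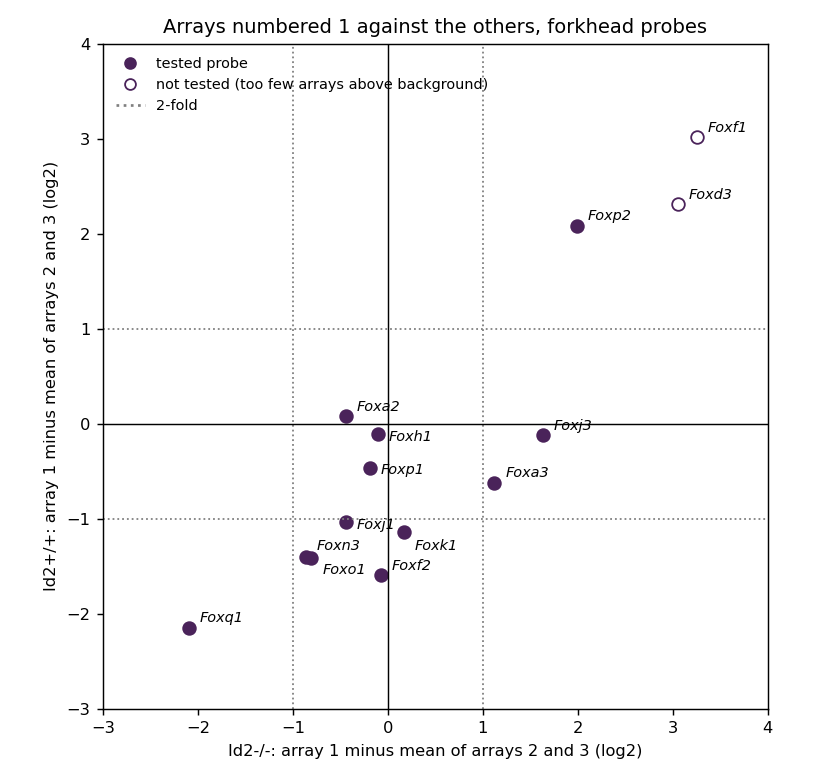
Log2 signal of the array numbered 1 minus the mean of the arrays numbered 2 and 3, in Id2-/- (horizontal axis) and Id2+/+ (vertical axis), for the 12 tested forkhead probes (filled) and for *Foxf1* and *Foxd3* (open), with dotted lines at 2-fold. *Foxp2* lies at 1.99 and 2.09 and *Foxq1* at -2.10 and -2.15, past 2-fold in both genotypes.

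The shift of the arrays numbered 1 took the tested Fox probes both ways. Only *Foxp2* was at least 2-fold higher than the other 2 arrays in both genotypes, as were 9.0% of all tested probes, and only *Foxq1* was at least 2-fold lower in both, as were 3.34%. The array numbered 1 was the lowest in both genotypes for 5 of the 12, namely *Foxj1*, *Foxn3*, *Foxo1*, *Foxp1* and *Foxq1*. The share over all tested probes was not taken for this count, so it cannot be called usual or unusual. Over the 12 probes the shift in Id2-/- correlated with that in Id2+/+ at r = 0.764 across probes, and over all tested probes at 0.838. These are descriptions, since probes of the same arrays are not independent. What the arrays numbered 1 have in common is not stated.

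Of the FoxO genes, which insulin and AKT signaling keep out of the nucleus, *Foxo1* was above background on every array. It was at 4.24, 5.17 and 4.91 on the Id2-/- arrays, against 3.82, 5.24 and 5.23 on the Id2+/+ arrays, a difference of 0.01 (standard error 0.46). Both arrays numbered 1 were low. *Foxo3*, at -1.31, 0.44 and -0.71 on the Id2-/- arrays against -0.71, -1.14 and -0.66 on the Id2+/+ arrays, and *Foxo4* were above background on 0 arrays. Among 21 genes of insulin and AKT signaling 13 were tested, with a median difference of 0.07 and 0 calls by limma with or without the block. Among 20 FoxO targets 10 were tested, with a median of 0.05 and 0 calls. The target with the smallest p was *Cdkn1a*, encoding the cell cycle inhibitor p21, at 3.45, 2.55 and 2.70 on the Id2-/- arrays against 2.10, 1.81 and 2.43 on the Id2+/+ arrays. Every Id2-/- array was higher than every Id2+/+ array, as for 2.73% of all tested probes, and the pair differences were 1.35, 0.74 and 0.27. The difference of 0.79 had an adjusted p of 1.0 in limma and of 0.133 with the block.

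*Foxm1*, which drives genes of mitosis, passed the background limit in 1 Id2-/- and 2 Id2+/+ samples. Its log2 signal was 1.39, 0.16 and -0.73 on the Id2-/- arrays, against 0.80, 1.70 and -0.08 on the Id2+/+ arrays, and it was not tested. Of 21 genes known as its targets 17 were tested, with a median difference of 0.15 and 0 calls in either direction with or without the block. *Plk1*, a mitotic kinase, differed by 0.32 and *Tpx2*, a spindle factor, by 0.27.

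*Foxh1*, which carries Smad2 to DNA in nodal and activin signaling of the early embryo, was above background on all arrays. It was at 3.84, 3.71 and 4.20 on the Id2-/- arrays, against 3.53, 3.65 and 3.63 on the Id2+/+ arrays. Every Id2-/- array was above every Id2+/+ array, so that *Foxh1* and *Foxa2* were the 2 of 12 tested Fox probes whose genotypes did not overlap, against 4.02% of all tested probes. The difference was small, at 0.31 (standard error 0.24), and did not pass limma without or with the block (adjusted p = 1.0 in both). After quantile normalization the genotypes of *Foxh1* overlapped.

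*Foxj1*, the factor of motile cilia, was at 2.12, 2.53 and 2.59 on the Id2-/- arrays, against 1.35, 2.24 and 2.54 on the Id2+/+ arrays. Each pair was higher in Id2-/-, by 0.76, 0.29 and 0.05, as for 11.8% of all tested probes, and the difference of 0.37 (standard error 0.36) did not pass. *Foxj3* was at 2.33, 0.57 and 0.83 on the Id2-/- arrays, against 1.39, 1.11 and 1.90 on the Id2+/+ arrays, and its pair differences of 0.95, -0.54 and -1.07 spanned both signs. *Foxj2* was above background in 2 Id2-/- samples and 1 Id2+/+ sample and stayed untested.

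The tested probe of *Foxk1*, a factor known from muscle progenitors, was at 1.10, 1.10 and 0.75 on the Id2-/- arrays, against -0.11, 0.96 and 1.09 on the Id2+/+ arrays. The low value was that of the Id2+/+ array numbered 1, and the difference of 0.34 turned to -0.042 without it. The other *Foxk1* probe was above background on 0 arrays, so a comparison of the pair was not possible. *Foxn3*, a repressor linked to the cell cycle checkpoint, was at 4.76, 5.82 and 5.41 on the Id2-/- arrays, against 4.44, 5.84 and 5.85 on the Id2+/+ arrays, and differed by -0.05. *Foxn2* was above background on 2 arrays of each genotype and was not tested.

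Several factors of single lineages were above background on few arrays. *Foxd3*, which keeps neural crest cells multipotent, was at 2.61, -0.41 and -0.48 on the Id2-/- arrays, against 2.28, 0.92 and -1.0 on the Id2+/+ arrays. Both arrays numbered 1 were above background and the other 4 were not. Of 13 markers of enteric neural crest 5 were tested, with a median difference of 0.07 and 0 calls. The log2 of their summed signal was 9.27 to 9.61 on the Id2-/- arrays and 8.96 to 9.73 on the Id2+/+ arrays. *Foxs1*, a gene of pericytes, was above background on the Id2-/- arrays numbered 1 and 3 and on 0 Id2+/+ arrays. It was at 0.42, -1.80 and -0.10 on the Id2-/- arrays, against -0.59, -2.17 and -2.11 on the Id2+/+ arrays, and the genotypes overlapped. The endothelium markers, 9 of 12 tested, had a median difference of 0.39 and 0 calls, and by pair it was 1.09, 0.24 and -0.15.

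*Foxd4*, *Foxe1*, known from the thyroid, and *Foxl2*, known from the ovary, each had a single signal above background, in an Id2+/+ sample. The 14 probes above background nowhere belong to *Foxb1*, *Foxb2*, *Foxc1*, *Foxd1*, *Foxd2*, *Foxe3*, *Foxi1*, *Foxi2*, *Foxn1*, *Foxn4*, *Foxo3*, *Foxo4*, *Foxp3* and the second probe of *Foxk1*. They include the factors of the thymus epithelium (*Foxn1*), the lens (*Foxe3*) and the kidney stroma (*Foxd1*). Their signal-to-noise values ran from -2.97 to 2.94 and their differences from -0.73 to 0.57. Such a signal says only that the gene was not detectable with its probe. When all 39 Fox probes were fitted with no limit on signal-to-noise, limma called 0 of them.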

How the data were processed

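Total RNA was amplified and labeled, and 6 samples were hybridized to Applied Biosystems mouse genome survey arrays. The deposited files give, per probe, the scanner's intensity, a signal-to-noise score, a quality flag code (unit: other) and a normalized intensity. Per the file headers and values, the authors divided each intensity by a constant that equals the median of unflagged spots, 708 to 1010.4. The deposited series table holds the same values (largest difference 0). Background subtraction is not stated. The methods exclude flags under 5000, but here flags of 5000 or more were taken as bad spots, since most spots carry 0 or 1.

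Log2 of the authors' normalized intensity went into limma 3.58.1 (R 4.3.3, eBayes, Benjamini-Hochberg at 0.05) over 12741 probes that were unflagged on all 6 arrays and reached a signal-to-noise score of 3 in every sample of one genotype or of both. The fit without the block was tested on simulated data with independent noise on each array and no shift of the arrays numbered 1. The fit with the block was not tested in this way. Deviations from the genotype mean were correlated between arrays of the same number (r = 0.838, 0.644 and 0.579 for numbers 1, 2 and 3), and the numbers, which come from the labels, were treated as pairs because each r was over 0.1. Only number 1 stands apart by this measure. Across numbers 2 and 3, r was 0.638 (Id2-/- array 3 with Id2+/+ array 2) and 0.549 (Id2-/- array 2 with Id2+/+ array 3), so the data do not tell pairs 2 and 3 from the swapped ones. Gene names come from the platform annotation and RefSeq (39 of 39 Fox probes matched), and related genes by the brightest tested probe. Values per array are printed for members that differed 2-fold, did not overlap, were detected in 1 genotype, or have a known gut role. From each list at most the 3 genes of smallest p are named. The values of the other tested probes and of *Foxs1*, *Foxj2* and *Foxd4* were added after they were seen. So were those of the tissue markers *Cdx2* and *Epcam*, and of *Hba-a1*, *Alas2*, *Neurog3* and *Cftr*. Members, lists and rules were chosen with earlier results of these data known. Alternatives were quantile normalization, other filters, an offset, a trended robust prior, the series table, the block, and leaving out arrays. The smallest two-sided p of an exact permutation test is 0.1 here, so none was run. Figures were drawn with matplotlib 3.10.9.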

Additional observations from a re-analysis of the deposited data

How the results depend on the processing

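With the replicate block the count of probes called by limma was 278 in place of 0, that of Fox probes 3 in place of 0, and that of genes in the related lists 5 in place of 0. With the replicate block and both arrays numbered 1 left out, a setting chosen after the data were examined, 40 probes and 0 Fox probes were called. The block turned the calls of *Foxa2* (2.09), *Foxq1* (-1.26) and *Foxa3* (-0.94) and of no other Fox probe. Requiring the background limit on all 6 arrays left 0 of 7 Fox probes at 2-fold between means or in each pair and 1 without overlap, because *Foxa2* and *Foxq1* are then not tested. With the offset 1 Fox probe was 2-fold apart in each pair. The probes without overlap numbered 1 after quantile normalization and 8 of 12 without the arrays numbered 1, which leaves 2 against 2 arrays. With so few arrays the genotypes separate more easily. For these settings no share over all tested probes stands beside the counts, so they are not a result about Fox probes.

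Some differences under 0.4 changed sign. Without both arrays numbered 1, with or without the block, *Foxf2* was at -0.27, *Foxp1* at -0.0055, *Foxo1* at -0.19, *Foxp2* at 0.0072 and *Foxk1* at -0.099. Quantile normalization, with or without the block, gave -0.018 for *Foxo1*. Leaving out 1 array at a time gave -0.29 to 0.53 for *Foxf2*, -0.77 to 0.12 for *Foxj3*, -0.069 to 0.24 for *Foxp1*, -0.46 to 0.28 for *Foxo1*, -0.51 to 0.24 for *Foxn3*, -0.69 to 0.67 for *Foxp2* and -0.042 to 0.56 for *Foxk1*. It kept the sign of *Foxa2* (1.85 to 2.31), *Foxq1* (-1.97 to -0.56), *Foxa3* (-1.31 to -0.57), *Foxh1* (0.17 to 0.42) and *Foxj1* (0.03 to 0.62). The cause of these changes was not tested. With 3 arrays per genotype the standard errors of the 12 tested Fox probes ran from 0.24 to 0.78, and 27 Fox probes were too close to background to be tested.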

Other observations

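Some Fox probes outside the tested set had differences of over 2-fold between single pairs that rest on signals below background. *Foxs1*, a gene of pericytes, had pair differences of 1.02, 0.37 and 2.0, and *Foxj2* of -0.88, 1.31 and 2.36. *Foxl1* differed by 2.17, 0.75 and -0.52, and *Foxd4* by -2.89, 0.83 and -0.46. Of the 4, *Foxs1* alone had 1 sign in all 3 pairs, and 4 of its 6 signals were below background.

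Blood genes were measured beside these. The 5 tested genes of 10 erythroid markers had a median difference of 0.72, with 0.78, 0.53 and 0.57 in the pairs, and limma called 0 of them with or without the block. The 3 embryonic globin genes *Hba-x*, *Hbb-y* and *Hbb-bh1* differed by 0.88, 0.72 and 0.72, while *Hba-a1* and *Alas2* differed by 0.02 and 0.04 and were lower in Id2-/- in 2 of the 3 pairs. *Hba-x* was at 8.92, 9.34 and 8.84 on the Id2-/- arrays, against 7.52, 8.79 and 8.15 on the Id2+/+ arrays. Of 12 pancreas markers 4 were tested, with a median difference of 0.53, and limma called 2 of them higher with the block and 0 without it. These were *Clps*, at 1.62, and *Pnliprp2*, at 0.99. The other 2 did not go with them: *Cpa1* was at -0.41, with -3.62, 2.40 and -0.0074 in the pairs, and *Neurog3* at 0.07. With the block 1.06% of all tested probes were called higher. *Clps*, *Pnliprp2* and *Cpa1* entered the test through Id2-/- alone, with 1, 2 and 2 Id2+/+ arrays above background, so the filter favored higher values there.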
